A study of Mus musculus with 6 samples.

Results

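The Hnrnp and SR genes encode the heterogeneous nuclear ribonucleoproteins (hnRNPs) and the serine- and arginine-rich splicing factors. Members were all genes whose symbol in the platform annotation starts Hnrnp, Hnrp, or Srsf or Sfrs with a number, without pseudogenes, and with a probe set that names 1 gene alone. The rule uses no measured value and gave 29 of the 18193 genes of the array, 19 hnRNP and 10 SR genes. Hnrnpa3 is not a member, because each of its probe sets also names another gene, and the annotation used names no probe set for Srsf7. The study set LSK cells against LK cells, both sorted by flow cytometry from wild-type C57BL/6 mice with no further treatment. LSK cells are low in lineage markers and carry Sca-1 and Kit, and hold the blood stem cells and multipotent progenitors. LK cells, also low in lineage markers and positive for Kit, lack Sca-1 and are the committed progenitors. Arrays are numbered 1 to 3 in each population. The labels give no age, and do not say whether an array is 1 animal or a pool, so the spread behind each p-value is that between these samples and may in part be technical. Both populations are mixtures, and fewer cells of a type cannot be told apart from less RNA per cell.

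In the nucleus, nascent RNA is coated by hnRNPs, most of which bind short sequence motifs through RRM or KH domains, and many of which silence nearby exons. SR proteins bind exonic enhancers through an RRM and recruit the spliceosome through a tail rich in arginine and serine, which kinases phosphorylate. The balance of the families at an exon helps to set whether it is kept, and several members also act in mRNA export, stability and translation. In blood formation splicing is regulated along most lineages, and splicing factors are recurrent targets of mutation in myeloid neoplasms.

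The arrays separated the populations by known genes. All 5 LSK markers tested (Mecom, Hlf, Flt3, Msi2 and Hoxa9) were higher in LSK, and 4 of 5 LK markers (Gata1, Klf1, Mpo, Car1 and Epor) were lower, all except Epor. In a limma fit with the replicate number as a block, Epor was lower too (adjusted p = 0.0262, against 0.0794 without it). The summed intensity of the LK markers ranged from 2666 to 4254 in LSK and from 9369 to 10220 in LK. Markers of B cells, T cells and late red cells that were measured had a mean log2 intensity under 4 in both populations, near the lower end of the scale. Of 4 measured neutrophil and macrophage markers, 2 were that low in both populations, and the others, Ltf and Camp, had mean log2 intensities of 8.18 and 9.66 in LSK and 7.31 and 8.48 in LK. C1qb, of the dim pair, was higher in LSK (limma adjusted p = 0.0108). With the block, Ltf and Camp were also higher in LSK (limma adjusted p = 0.0154 and 0.0378, against 0.377 and 0.2285 without it). Kit, the marker of both gates, had means of 8.545 in LSK and 7.739 in LK. It was higher in LSK with the block alone (limma adjusted p = 0.0185, against 0.124 without it). The 3′ to 5′ difference of the Actb and Gapdh control probe sets, on the log2 scale, was 2.32, 2.32 and 3.30 in LSK replicates 1 to 3 and 3.26, 3.94 and 3.40 in LK replicates 1 to 3. A higher value means more 3′ bias. LSK replicate 3 lay within the LK range on this measure. With 3 arrays a population, precision is limited by their number.

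Most of the splicing factor genes were not called different between LSK and LK, with 3 arrays a population. Of the 29 members, 1 was lower in LSK (Hnrnpll), 0 were higher and 28 were not past an adjusted p of 0.05 (limma over all genes, Benjamini-Hochberg adjustment). Over the array 6.73% of the genes passed by the same rule, 2.89% lower and 3.84% higher. In a fit on the 7968 genes with a mean log2 of at least 4 in LSK or LK, 19.6% of the genes passed. Of the 28 members in that fit, Hnrnpll alone passed. At an unadjusted limma p under 0.05, 6 members were lower and 3 higher, where the array has 11.9% and 10.5% of its genes. The median log2 difference of the members was -0.20 (quartiles -0.32 and 0.014), against -0.022 over all genes (quartiles -0.25 and 0.19). Among the genes with a mean log2 of at least 4 in LSK or LK, these medians were -0.19 and -0.087. Taken without sign, the median log2 difference was 0.255 among members and 0.221 among all genes, dim genes included. By this measure the members' differences were not smaller than those of the array. The difference was negative in 21 of 29 members, against 53.3% of all genes. The 3 LSK arrays lay below the 3 LK arrays in 13 members and above them in 3, where 14.8% and 13.2% of all genes did so. These shares of all genes include dim genes and were not matched for the intensity of the members. The mean log2 intensity of the members was 9.28, 9.30 and 9.42 in LSK replicates 1 to 3 and 9.45, 9.56 and 9.50 in LK replicates 1 to 3, so the arrays of the populations did not overlap. LSK replicate 3 was the closest to LK.

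**Figure D1:**
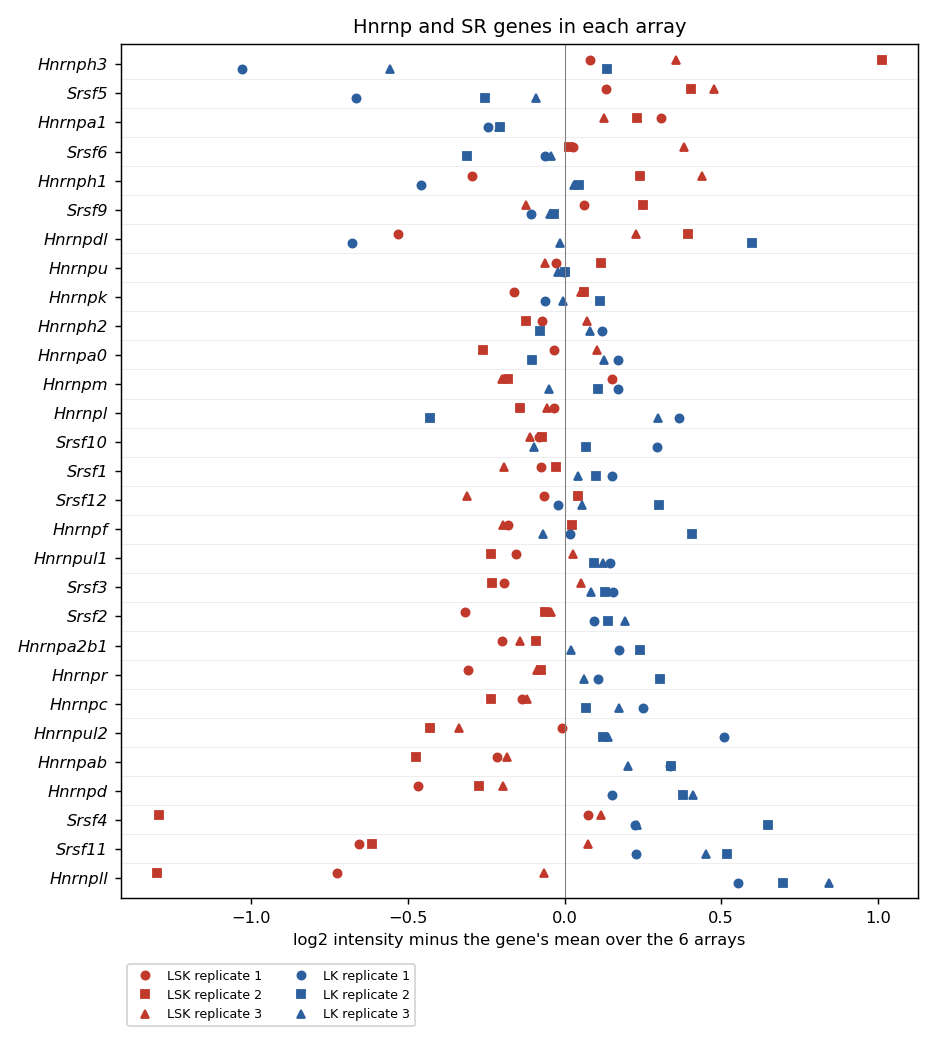
Log2 intensity of the 29 members in each of the 6 arrays, as the deviation from the gene's own mean (x axis, log2 units), with genes in rows ordered by their difference; LSK arrays are red and LK arrays blue, and symbols give the replicate number. In 13 rows all red points lie left of all blue points, and in 3 rows all lie right of them.

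The same arrays also bound how large a difference could be for the probe set that represents each gene. The 95% interval of the log2 difference lay within -1 and 1, a change of less than a factor of 2 either way, for 24 of 29 members. Over the array this held for 69.6% of the genes, and for 61.3% of the genes with a mean log2 intensity of at least 8. The exceptions were Hnrnpll, Srsf11, Srsf4, Srsf5 and Hnrnph3. Other probe sets of the same genes are not covered, and a dimmer one of Srsf1 gave -1.0 (SE 0.21). The 24 include Srsf12, whose signal was at the lower end of the scale, so its interval does not bound the gene's own difference. The pooled SD within populations had a median of 0.14 on the log2 scale among members and 0.23 among all genes.

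Same-numbered arrays of the populations deviated together across genes, and a fit with the replicate number as a block was therefore set beside the fit on population alone. With the block, 3 members were lower in LSK (Hnrnpll, Hnrnpd and Srsf11) and 2 were higher (Srsf5 and Hnrnph3). The background also grew, to 14.4% of the genes, 7.36% lower and 7.02% higher.

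**Figure D2:**
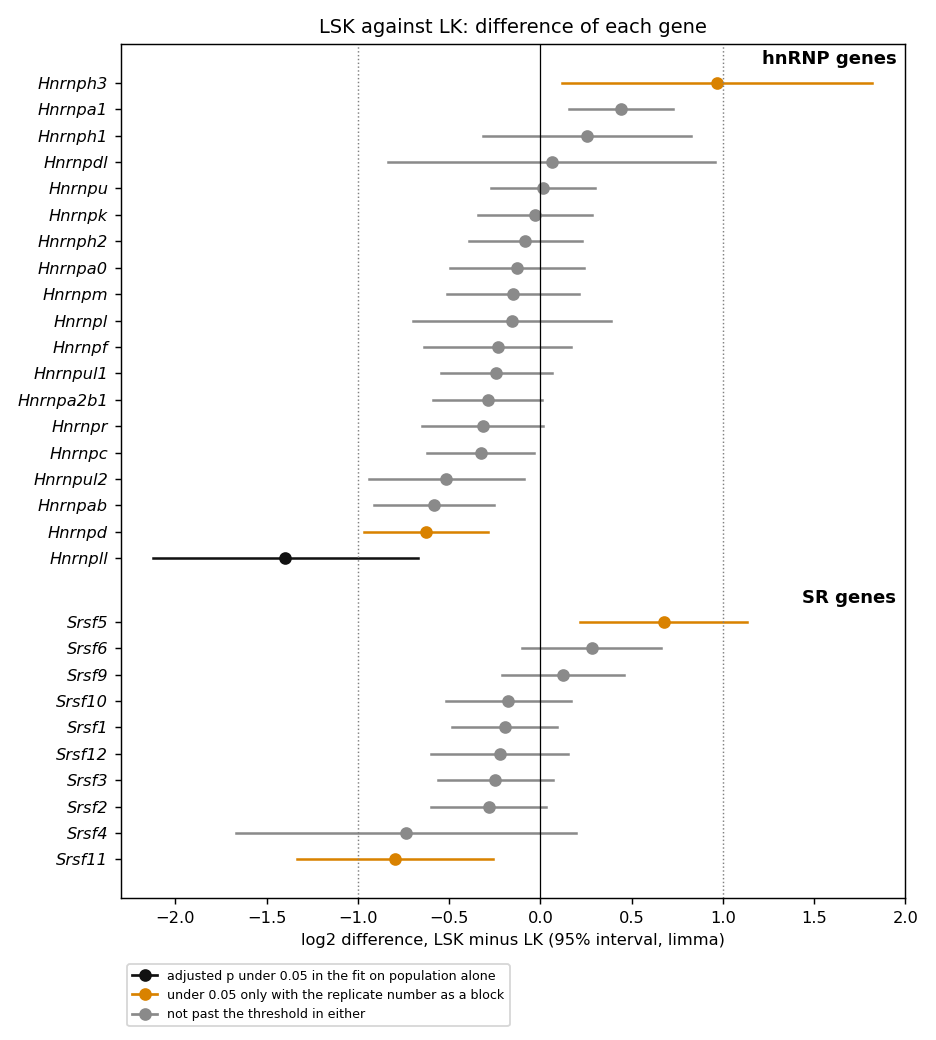
Log2 difference of each member, LSK minus LK (x axis), with its 95% interval from limma, hnRNP genes above and SR genes below; dotted lines mark -1 and 1. The black point, Hnrnpll, passed the threshold in the fit on population alone, the 4 orange points only with the replicate number as a block, and the other 24 members in neither.

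Hnrnpll, the hnRNP known for repressing the variable exons of CD45 in activated T cells and plasma cells, was the member with the largest difference. Its log2 intensity was 7.80, 7.23 and 8.46 in LSK replicates 1 to 3 and 9.08, 9.23 and 9.38 in LK replicates 1 to 3. All LSK arrays lay below all LK arrays, with LSK replicate 3 the nearest, and the spread was wider in LSK (SD 0.62) than in LK (SD 0.15). The log2 difference was -1.40 (SE 0.30, 95% interval -2.12 to -0.67), or 2.63-fold lower in LSK, with a limma adjusted p of 0.0452 (0.0187 with the replicate block). A second Hnrnpll probe set, which can also bind related transcripts, gave -2.05 (SE 0.26, 4.14-fold, adjusted p = 0.0129 over all probe sets in limma). It was the only probe set of a member past that threshold, where 1.74% of all probe sets were lower and 2.55% higher. The B-cell and T-cell markers measured were at the lower end of the scale in both populations. No plasma cell marker was among those listed, and the part of lymphoid cells in the Hnrnpll difference was not tested.

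The call for Hnrnpll was close to the threshold and was lost in most fits with 1 array fewer. Leaving out any 1 array other than LSK replicate 3 gave a limma adjusted p between 0.0716 and 0.151. Leaving out LSK replicate 3 gave 0.0168. The log2 differences in these fits ran from -1.71 to -1.10. Where the call was lost, 306 to 768 genes of the array passed, against 1225 with all 6 arrays. With the control probe sets' 3′ to 5′ difference added as a covariate, the log2 difference was -0.76 (limma adjusted p = 0.603), and 25 genes of the whole array passed. Hnrnpll was highest in replicate 3 of both populations, which had the highest 3′ to 5′ difference in LSK but not in LK, where replicate 2 had it. LSK replicates 1 and 2 both had a 3′ to 5′ difference of 2.32, with Hnrnpll at 7.80 and 7.23. The part of 3′ bias in the result was not tested beyond this fit.

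Hnrnpl, the paralog of Hnrnpll that binds CA repeats, gave 6.19, 6.08 and 6.17 in LSK and 6.59, 5.80 and 6.52 in LK, with replicate 2 lower than the other LK arrays. The populations overlapped (log2 difference -0.16, 95% interval -0.70 to 0.39). No test compared the paralogs with each other.

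The promoters of the members called only with the block are printed to show what lies ahead of genes that differed in opposite directions. RefSeq (GRCm38.p6) windows of the 250 bases before the start were found for 27 of 29 members, and Hnrnpll and Hnrnpul2 had none in the table used. Capitals mark the GC box GGGCGG and the ETS core CGGAAG, either strand. In Srsf11 and in Srsf5 a GC box and an ETS core lie end to end. Hnrnpd and Srsf11 were lower in LSK, and Hnrnph3 and Srsf5 higher. The windows are chr5:99978939-99979188 for Hnrnpd, chr3:158036607-158036856 for Srsf11, chr10:63023850-63024099 for Hnrnph3, all on the minus strand, and chr12:80945249-80945498 on the plus strand for Srsf5.
Hnrnpd: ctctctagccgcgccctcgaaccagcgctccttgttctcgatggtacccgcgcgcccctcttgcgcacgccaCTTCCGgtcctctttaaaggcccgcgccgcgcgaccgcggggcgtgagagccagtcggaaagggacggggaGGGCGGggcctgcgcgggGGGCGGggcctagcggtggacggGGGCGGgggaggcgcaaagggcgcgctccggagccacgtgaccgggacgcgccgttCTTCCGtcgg
Srsf11: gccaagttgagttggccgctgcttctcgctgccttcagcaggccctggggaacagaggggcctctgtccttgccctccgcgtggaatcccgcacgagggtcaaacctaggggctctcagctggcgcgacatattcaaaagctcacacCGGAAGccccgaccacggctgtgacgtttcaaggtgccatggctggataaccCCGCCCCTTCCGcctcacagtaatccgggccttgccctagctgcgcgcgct
Hnrnph3: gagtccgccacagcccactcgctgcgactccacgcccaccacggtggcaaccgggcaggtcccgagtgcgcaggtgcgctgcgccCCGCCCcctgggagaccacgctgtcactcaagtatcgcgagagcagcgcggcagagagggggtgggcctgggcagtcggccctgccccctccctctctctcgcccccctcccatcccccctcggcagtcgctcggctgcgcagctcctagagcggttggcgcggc
Srsf5: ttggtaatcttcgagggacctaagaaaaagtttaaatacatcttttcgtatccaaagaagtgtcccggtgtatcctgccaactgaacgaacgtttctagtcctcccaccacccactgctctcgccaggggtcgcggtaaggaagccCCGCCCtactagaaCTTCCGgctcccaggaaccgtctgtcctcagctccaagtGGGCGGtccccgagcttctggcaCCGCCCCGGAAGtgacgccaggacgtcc

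Hnrnpd and Srsf5, on opposite sides of the comparison, each hold 3 GC boxes and 2 ETS cores in this window. Srsf11 holds 1 GC box and 2 ETS cores, and Hnrnph3 has 1 GC box and no ETS core of these letters. Srsf11 has a second start in the table, and the more upstream one is shown. Among members 77.8% of the windows held a GC box and 33.3% an ETS core. Among the 14452 genes of the array with a window the shares were 49.9% and 20.0%, and among the 1985 of these with a mean log2 intensity of at least 8 they were 64.4% and 30.1%. The CCAAT box (CCAAT, either strand) stood in 51.9% of the members' windows, 35.8% of those of the array's genes and 38.6% of those at the higher level. The TATA box (TATAAA, either strand) stood in 11.1%, 9.02% and 6.35%. These motifs can share bases with each other, and a match is a run of letters, not a bound site. The median window held 23 CpG dinucleotides among members, 13 among genes of the array and 18 among genes at the higher level.

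Srsf11, an SR-related protein known to bind U2AF, had log2 intensities of 7.39, 7.43 and 8.12 in LSK replicates 1 to 3, against 8.27, 8.56 and 8.49 in LK replicates 1 to 3. The populations did not overlap, and LSK replicate 3 lay close to LK. The log2 difference was -0.80 (SE 0.22, limma adjusted p = 0.0881, 0.0441 with the replicate block). Without LSK replicate 3 the difference was -1.03 (limma adjusted p = 0.0237), and with the 3′ to 5′ covariate it was -0.25 (limma adjusted p = 0.860). A second Srsf11 probe set gave -0.89, and the other 2, with wide spreads, 0.16 and 0.82, at unadjusted p of 0.761 and 0.242. The mean of the 4 gave -0.18 (limma adjusted p = 0.741).

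Hnrnpd, also called AUF1, binds AU-rich elements and promotes decay of many short-lived mRNAs. Its log2 intensity was 7.84, 8.04 and 8.12 in LSK and 8.46, 8.69 and 8.72 in LK. The arrays did not overlap and the gap was similar in each pair. The log2 difference was -0.63 (SE 0.14, 1.54-fold), just outside the threshold on population alone (limma adjusted p = 0.0510) and inside it with the block (0.0314). With the mean of all its probe sets it was -0.16 (limma adjusted p = 0.441). That mean takes in 2 probe sets near the lower end of the scale. Their means were 4.41 and 3.66 in LSK and 4.21 and 3.72 in LK. Its relative Hnrnpdl had the highest pooled SD within populations among the hnRNP genes (0.57), at 10.42, 11.34 and 11.18 in LSK and 10.27, 11.55 and 10.94 in LK. Replicate 1 was the lowest in both populations, which overlapped (log2 difference 0.061, 95% interval -0.84 to 0.96).

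Srsf5, an SR protein of the classical family, lay toward LSK. Its log2 intensity was 10.64, 10.92 and 10.99 in LSK replicates 1 to 3 and 9.85, 10.26 and 10.42 in LK replicates 1 to 3. Every LSK array lay above every LK array, and both populations had replicate 1 lowest and replicate 3 highest. The log2 difference was 0.67 (SE 0.19, limma adjusted p = 0.0898, 0.0288 with the block).

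Hnrnph3, a smaller relative of the G-tract binding proteins hnRNP H and F, had log2 intensities of 7.77, 8.70 and 8.04 in LSK and 6.66, 7.82 and 7.13 in LK. The populations overlapped, since LK replicate 2 lay above LSK replicate 1, but each LSK array exceeded the LK array of its number, by 1.11, 0.88 and 0.91. The log2 difference was 0.97 (SE 0.36, 1.96-fold, limma adjusted p = 0.170, 0.0129 with the block). A single probe set measured this gene. Of the other members of the F/H type, Hnrnph1 gave 10.44, 10.98 and 11.18 in LSK and 10.28, 10.78 and 10.77 in LK (log2 difference 0.26, limma adjusted p = 0.606), higher in LSK in 3 of 3 pairs. Hnrnph2 and Hnrnpf had log2 differences of -0.083 and -0.24. Their populations overlapped, and each was lower in LSK in 3 of 3 pairs. The other probe sets of Hnrnpf, each with overlap, gave -0.28, 0.36 and 0.27. The mean of its 4 probe sets gave 0.028 (limma adjusted p = 0.951).

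**Figure D3:**
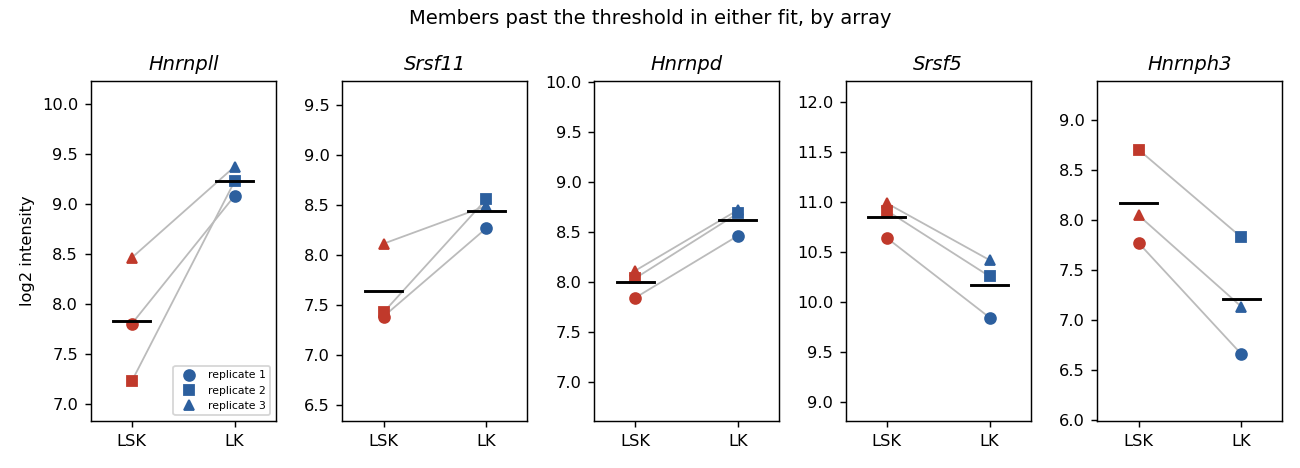
Log2 intensity (y axis, the same span in each panel) of the 5 members past the threshold in either fit, LSK on the left and LK on the right; each point is an array, grey lines join arrays with the same number and black bars are means. Hnrnph3 overlaps between the populations but its LSK end is the higher one on each of the 3 lines, by 0.88 to 1.11.

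The A/B type hnRNPs, abundant proteins with tandem RRM domains, pointed in different directions. Hnrnpab had log2 intensities of 10.75, 10.49 and 10.78 in LSK and 11.30, 11.30 and 11.16 in LK. The populations were apart, with a log2 difference of -0.58 (SE 0.14, limma adjusted p = 0.0552, 0.0558 with the block). A second of its 7 probe sets was lower at an unadjusted p under 0.05, and the mean of all 7 gave -0.30 (limma adjusted p = 0.417). Hnrnpa1, an exon silencer that shuttles between nucleus and cytoplasm, lay the other way, at 10.82, 10.74 and 10.63 in LSK and 10.26, 10.30 and 10.30 in LK. The populations did not overlap, and the log2 difference was 0.44 (SE 0.12, 1.36-fold, limma adjusted p = 0.0796, 0.0871 with the block). Its level is uncertain, because the probe set can cross-hybridise and the genome holds close copies of the gene. The 3 probe sets that name Hnrnpa1 together with such copies had means of 11.83, 11.75 and 11.67 in LSK and 11.31, 11.17 and 11.05 in LK. Its other 2 probe sets of 1 gene, both dimmer, overlapped between the populations, with log2 differences of 0.25 and -0.077, and the mean of the 3 gave 0.21 (limma adjusted p = 0.703). Hnrnpa2b1, which binds many mRNAs bound for transport, had a log2 difference of -0.29 without overlap (limma adjusted p = 0.236). Its other probe sets, each with overlap between the populations, gave 0.23, -0.10 and -0.26. Hnrnpa0, an AU-rich element binder, had 11.59, 11.37 and 11.73 in LSK and 11.80, 11.52 and 11.75 in LK, which overlapped (log2 difference -0.13, 95% interval -0.49 to 0.24).

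In the U type, proteins of the nuclear scaffold and their relatives, Hnrnpul2 had log2 intensities of 9.14, 8.72 and 8.81 in LSK and 9.66, 9.27 and 9.29 in LK. All LSK arrays were below all LK arrays, and replicate 1 was the highest in both. The log2 difference was -0.52 (SE 0.18, limma adjusted p = 0.148, 0.0521 with the block), while its second probe set gave 0.16. Hnrnpul1 had a log2 difference of -0.24 without overlap (limma adjusted p = 0.335). Hnrnpu, which encodes scaffold attachment factor A, had 12.37, 12.51 and 12.33 in LSK and 12.39, 12.40 and 12.37 in LK. These arrays overlapped almost wholly, with a log2 difference of 0.014 (95% interval -0.27 to 0.30). Its sign turned to negative in several alternatives. Another Hnrnpu probe set gave -0.77 without overlap (unadjusted p = 0.00245, limma adjusted p = 0.0533 over all probe sets), so the probe sets of Hnrnpu did not give 1 answer.

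Hnrnpk, which binds C-rich RNA through KH domains, had log2 intensities of 12.04, 12.27 and 12.25 in LSK and 12.14, 12.31 and 12.20 in LK. The arrays overlapped, with a log2 difference of -0.030 (95% interval -0.34 to 0.28), and the sign turned when LSK replicate 1 or LK replicate 2 was left out. All 4 of its probe sets lay between -0.050 and 0.019. Hnrnpc, which binds U-rich tracts and shields cryptic exons, had a log2 difference of -0.33 (SE 0.12, limma adjusted p = 0.177) and Hnrnpr, a relative of Syncrip, -0.32 (SE 0.14, limma adjusted p = 0.245), both without overlap. A second Hnrnpc probe set gave -0.028 and another, near the lower end of the scale, 0.33, both with overlap. Hnrnpm had -0.15, with overlap. By family, the hnRNP genes had a median log2 difference of -0.16, with 14 of 19 negative, and the SR genes -0.21, with 7 of 10 negative.

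None of the other SR genes passed in either fit. Srsf1, the founding member and a regulator of splice site choice, had log2 intensities of 11.81, 11.86 and 11.69 in LSK and 12.03, 11.98 and 11.93 in LK. Every LSK array was below every LK array, by a small margin, and the log2 difference was -0.20 (95% interval -0.48 to 0.092, limma adjusted p = 0.413). Srsf3, the smallest SR protein, had 11.58, 11.54 and 11.83 in LSK and 11.93, 11.90 and 11.86 in LK, again apart, with a log2 difference of -0.25 (limma adjusted p = 0.339). Srsf2, an exonic enhancer binder, had -0.28 (limma adjusted p = 0.274), without overlap. Its other probe sets overlapped between the populations. The brightest of them, at 10.54 in LSK and 10.41 in LK, gave 0.13, and 2 dim ones gave -0.35 and -0.53. Srsf6 lay toward LSK, at 9.85, 9.84 and 10.21 in LSK and 9.76, 9.51 and 9.78 in LK, which did not overlap (log2 difference 0.28, limma adjusted p = 0.373). Its 4 probe sets differed in direction: 2 others gave 0.54 (unadjusted p = 0.00499) and 0.081, while the dimmest gave -0.40 with every LSK array below every LK array (unadjusted p = 0.0545). Srsf4 had 6.79, 5.41 and 6.82 in LSK and 6.93, 7.36 and 6.94 in LK. LSK replicate 2 stood far below the other arrays, and the log2 difference of -0.74 had an interval from -1.67 to 0.20. Srsf9 and Srsf10 had log2 differences of 0.12 and -0.18, with overlap. Srsf12 had 2.49, 2.60 and 2.25 in LSK and 2.54, 2.86 and 2.61 in LK, at the lower end of the scale in all arrays, where a difference would be compressed. It was the only member with a mean under 4 in both populations.

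Probe sets of 1 gene did not always move together. The 29 members had 91 probe sets, and 20 members had more than 1. At an unadjusted p under 0.05, 17 of the 91 were lower in LSK and 7 higher, where 10.1% and 9.47% of all probe sets were. Srsf3 and Srsf10 had probe sets past this p in both directions, 2 of the 20 members, where 1.68% of 9010 genes had them. These shares were not matched for the number of probe sets per gene or for their level. Srsf3 has 6 probe sets and Srsf10 has 4. For Srsf10, which represses splicing when it is dephosphorylated, 1 probe set had means of 6.83 in LSK and 7.71 in LK (log2 difference -0.89, unadjusted p = 0.00422) and another 6.97 in LSK and 6.37 in LK (0.60, unadjusted p = 0.0263). The probe set that represents the gene gave -0.18. For Srsf3, 3 probe sets were lower, by -0.47 to -0.32, and a dimmer one was higher, with means of 5.65 in LSK and 4.85 in LK (0.81, unadjusted p = 0.0105). Srsf1 had 2 probe sets lower, with log2 differences of -1.0 and -0.56, while the 3 brighter ones lay between -0.20 and -0.12. Hnrnpr had 1 probe set higher, at 0.78 (unadjusted p = 0.0171), against -0.32 for the probe set that represents it. SR genes are known to make alternative transcripts, some of which carry early stop codons, but which transcript each probe set reads was not tested.

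**Figure D4:**
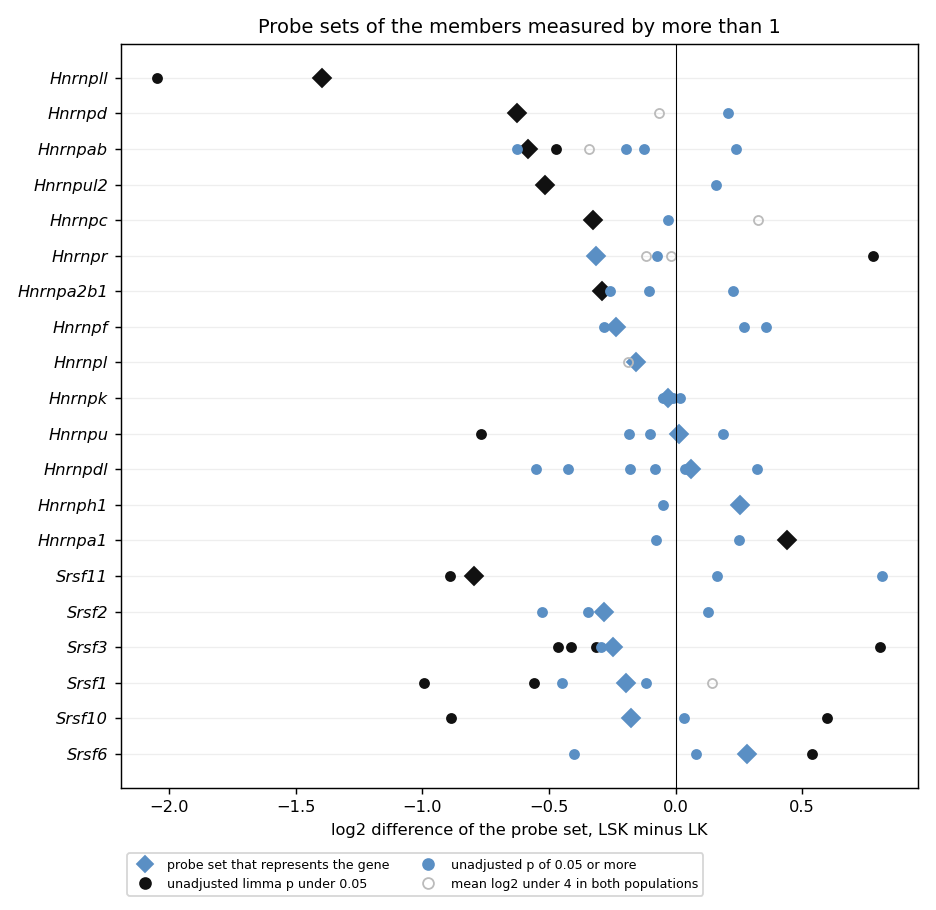
Log2 difference, LSK minus LK, of every probe set (x axis) of the 20 members measured by more than 1, with genes in rows; diamonds are the probe sets that represent the gene, black marks those with an unadjusted limma p under 0.05, and open circles those with a mean log2 under 4 in both populations. Both Hnrnpll marks lie at the left, while Srsf3 and Srsf10 have black marks on both sides of 0.

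The rest of the splicing machinery was counted from lists of its parts, and 88 of 93 listed genes were measured. Of these, 6 were lower in LSK, 1 was higher and 81 were not past the threshold, where 2.89% of all genes were lower and 3.84% higher. In the fit on the 7968 genes with a mean log2 of at least 4 in LSK or LK, 80 of the listed genes remained. Of these 80, 8 were lower and 1 was higher, where 19.6% of the genes in that fit passed in either direction. With the replicate block 16 of the 88 were lower and 4 higher, where 7.36% and 7.02% of all genes were. The median log2 difference of the 88 was -0.15. Of 12 tri-snRNP and Prp19 complex genes, 2 were lower and 0 higher: Eftud2, a GTPase of the U5 particle (means 8.82 in LSK and 9.92 in LK, 2.15-fold, limma adjusted p = 0.0330), and Bcas2 (means 5.66 in LSK and 6.75 in LK, 2.13-fold, limma adjusted p = 0.0294). The median of these 12 was -0.66, and with the block 5 were lower, Prpf8, Prpf31 and Snrnp200 besides. Of 17 genes of U1 and U2 recognition, 3 were lower and 0 higher, with a median of -0.44: the U2 protein genes Snrpa1 (2.35-fold, limma adjusted p = 0.0368) and Sf3a2 (2.76-fold, 0.0394) and the SF3b subunit gene Sf3b4 (1.65-fold, 0.0335), whose mean of 3.48 in LSK is near the lower end of the scale, against 4.19 in LK. With the block 5 of the 17 were lower, Snrpb2 and Sf3b3 besides, and 1 was higher, Sf3a1. The probe sets of Sf3a1 differed in direction. The probe set that represents it had means of 6.66 in LSK and 5.84 in LK (log2 difference 0.82). Another had means of 5.73 in LSK and 6.72 in LK (log2 difference -0.985). The remaining ones, with means under 4 in both populations, gave -0.13 and 0.21.

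Among 21 other alternative splicing factors, Mbnl3, a muscleblind protein, was 2.06-fold lower (means 6.18 in LSK and 7.23 in LK, limma adjusted p = 0.0299). Celf2, a CUG-binding protein, was 1.84-fold higher (means 11.90 in LSK and 11.03 in LK, limma adjusted p = 0.0397). The next 2 Celf2 probe sets in brightness gave log2 differences of only 0.18 and 0.16. Of the dimmer ones, 2 gave 1.85 (limma adjusted p = 0.01455 over all probe sets) and 1.535 (adjusted p = 0.0577). The last 2, with means under 4 in both populations, gave -0.14 and -0.17. The median of this list was 0.053, and with the block Mbnl2 was also higher. In the lists closest to the members no gene passed limma on population alone: 0 of 11 SR-related helpers, 0 of 9 SR protein kinases and their importer, and 0 of 12 hnRNP partners, importers and methyltransferases, with 3, 2 and 1 lower and 0 higher at an unadjusted p under 0.05. Their medians were -0.12, 0.044 and -0.12. With the block, Rnps1 of the helpers was lower (limma adjusted p = 0.0482), as were the kinase gene Clk2 (0.0282) and the partners Pcbp1 (0.0485) and Ptbp1 (0.0135), and the kinase gene Clk1 was higher (0.0239). None of 6 Sm core genes passed limma on population alone (2 lower at that unadjusted p, median -0.14), and with the block Snrpb was lower (limma adjusted p = 0.0348).

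Several of these calls depend on the probe set. Those of Eftud2, Bcas2 and Sf3a2 come from probe sets whose suffix, _x_at or _s_at, marks possible binding of other transcripts. The brightest probe set without these suffixes gave log2 differences of -0.41 for Bcas2 (limma adjusted p = 0.394), -0.47 for Sf3a2 (0.338) and -1.57 for Eftud2 (0.117), of which those for Bcas2 and Sf3a2 had means under 4 in both populations. With the mean of all probe sets of a gene, 2 of the 88 were lower, Sf3a2 at -0.97 (limma adjusted p = 0.0454) and Sf3b4 at -0.61 (0.0380), and 0 were higher. The other called genes lost the call: Celf2 at 0.61 (limma adjusted p = 0.0509), Mbnl3 at -0.66 (0.0733), Bcas2 at -0.56 (0.0637), Snrpa1 at -0.94 (0.07945) and Eftud2 at -1.03 (0.0815). With the 3′ to 5′ covariate 0 of the 88 passed in limma. Leaving out replicate 1 or 2 of LSK, or replicate 2 or 3 of LK, left 0 of the 88 genes past the threshold in limma, leaving out replicate 1 of LK left 1 (Bcas2), and leaving out replicate 3 of LSK left 8. Without 1 array the 7 called genes kept their direction, and the log2 difference lay between -1.51 and -1.05 for Snrpa1, between -1.80 and -1.20 for Sf3a2 and between -0.81 and -0.63 for Sf3b4.

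**Figure D5:**
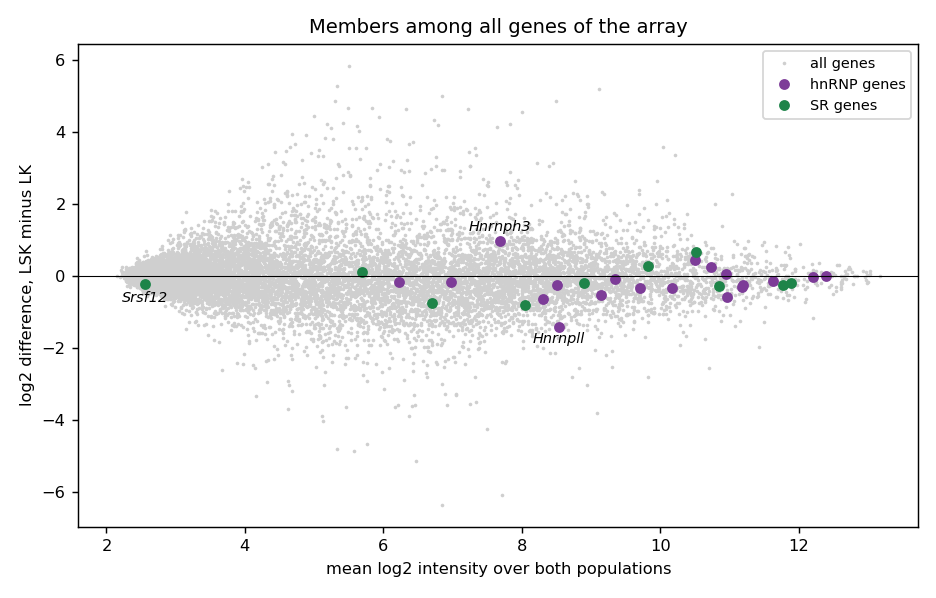
Log2 difference, LSK minus LK (y axis), against mean log2 intensity over both populations (x axis) for the 18193 genes (grey), the 19 hnRNP genes (purple) and the 10 SR genes (green). The members lie between -1.40 for Hnrnpll and 0.97 for Hnrnph3, inside a cloud that spans -6.35 to 5.84, and Srsf12 alone sits at the dim end.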

How the data were processed

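RNA of 3 LSK and 3 LK samples was extracted with a column kit, linearly amplified, biotinylated and measured on an Affymetrix mouse array, per the labels' protocols. The values deposited are intensities, 1 per probe set, and are linear, not logged. RMA, the affy package and R 2.11.0 made them, as the submitters' processing notes name (per the labels). RMA normalises arrays to a common distribution, which hides any shift common to all genes. The deposited arrays were not wholly alike. Their upper quartiles of intensity were 25.62, 22.06 and 25.8 in LSK replicates 1 to 3 and 24.92, 20.82 and 24.25 in LK replicates 1 to 3. With renewed quantile normalisation 1667 genes passed in limma, against 1225 on the values as deposited. Scanner files and detection calls were not used here, and depth in reads does not apply.

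Of 45101 probe sets, 64 were controls, 34945 named 1 gene, 932 named several and 9160 are unnamed here. Intensities were put on the log2 scale, and each of 18193 genes was represented by the probe set with the highest mean over the 6 arrays. The comparison of LSK with LK used lmFit and eBayes of limma 3.58.1 under R 4.3.3, two-sided, with population alone in the model. P-values were adjusted by Benjamini-Hochberg over the 18193 genes, at a threshold of 0.05. A fold divides the higher population by the lower, differences are LSK minus LK, and intervals cover 95%. The fit was tested on simulated data. Figures were drawn with Python 3.11.15.

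Replicate numbers stand in the labels without a meaning. The correlation across genes of the deviations from the population means was 0.42, 0.43 and 0.27 for numbers 1 to 3. The numbers were therefore taken to pair the arrays. The blocked fit is given where it changes the call of a member, a marker or a listed splicing gene. Of 15 array pairs, 0 were identical.

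Members with values in every array were named by a rule: those past the threshold, the 5 with the lowest p in each direction, the 5 brightest and those under a log2 of 4 in both populations. From the splicing lists the genes past the threshold were named, and those past it only with the block were added after their values were seen. Values by array of Hnrnpl, Hnrnpdl and Srsf4 were added after their values were seen. The members and lists were chosen with earlier results of these data known.

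Promoter sequences are from RefSeq, GRCm38.p6, with 1 window per gene at its most upstream start. The array files name no genome build, and no position was taken from them.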

Additional observations from a re-analysis of the deposited data

How the results depend on the processing

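The 16 alternatives were the replicate block, 2 other ways to represent a gene, a filter on dim genes, renewed quantile or loess normalisation, another variance model, array weights, the 3′ to 5′ covariate, both replicate 2 arrays left out, and each array left out in turn. The median log2 difference of the members stayed below 0 in all, from -0.24 to -0.13. The number of genes called over the array was 2617 with the replicate block, 2606 with array weights, 537 without both replicate 2 arrays, 25 with the covariate and 306 to 1269 without 1 array. The members lower in LSK were 3 with the replicate block, 4 with array weights (Hnrnpab, Hnrnpd, Hnrnpll and Srsf11), 2 with trend and robust variances (Hnrnpab and Hnrnpll), 2 with probe sets without an _x_at or _s_at suffix (Hnrnpll and Hnrnpu), 0 with the covariate, 0 without both replicate 2 arrays and 0 to 2 without 1 array. The members higher were 2 with the replicate block, 1 with trend and robust variances (Srsf5), 1 with array weights and 1 with cyclic loess (both Hnrnpa1), and 0 to 0 without 1 array. The replicate block changed the call of no other member. Of 255 refits of the 16 named members, 227 kept direction and call, 12 gained the call, 7 lost it (all Hnrnpll) and 9 turned the sign. The difference of Hnrnpk turned with the covariate (0.10) and when replicate 1 of LSK (0.043) or replicate 2 of LK (0.019) was left out, and lay between -0.069 and 0.043 without 1 array. That of Hnrnpu turned with averaged probe sets (-0.17), with probe sets without the suffixes (-0.77), with renewed quantiles (-0.0090), with the covariate (-0.051), without both replicate 2 arrays (-0.035) and without LSK replicate 2 (-0.039), and lay between -0.039 and 0.050 without 1 array. The cause was not tested. With fewer arrays fewer genes pass, and signals near the lower end of the scale hide differences.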
